A study of Mus musculus with 6 samples.

Results

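Autophagy genes were taken as 37 listed genes whose products carry out or control macroautophagy, matched by symbol to the Ensembl gene IDs of a table of raw counts. All 37 were found among the 55487 genes of the table, and all 37 passed the filter on low counts that left 15748 genes for testing. The RNA was that of D6AdP, a line of embryonic stem (ES) cells of the mouse. Both Ddx6 copies in this line carry an auxin-inducible degron and mCherry (DDX6-AID-mCherry/DDX6-AID-mCherry), 1 copy of Dcp1a carries EGFP (DCP1a-EGFP/+), and a transgene, OsTIR1-FLAG, supplies a plant F-box protein that marks the degron for destruction once an auxin is added. PolyA RNA was sequenced from cells collected before and after 3 h and 6 h with 500 nM of the auxin analog 5-Ph-indole-3-acetic acid, as 2 libraries for each time and 6 in all.

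The alleles and the transgene were the same at 0, 3 and 6 h, the ES cells grew on mitotically inactive fibroblast feeder cells, and the medium held leukemia inhibiting factor with inhibitors of MEK (PD0325901) and GSK3 (CHIR99021). D6AdP is a single line, and the labels name no promoter for the OsTIR1 transgene. Neither untreated wells kept for 3 or 6 h nor treated cells without the degron were analysed here, so effects of the analog, of time and of DDX6 protein loss cannot be told apart. Nothing in the labels states that replicate libraries are separate cultures, so each p-value rests on a spread between libraries that may be technical alone.

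Macroautophagy encloses cytoplasm in a double membrane, the autophagosome, and delivers it to the lysosome. The ULK kinase complex starts the process, a class III phosphatidylinositol 3-kinase complex marks the growing membrane, and 2 ubiquitin-like conjugation systems attach ATG8 proteins (the LC3 and GABARAP families) to its lipid, where they capture cargo receptors. DDX6 is an RNA helicase of P-bodies that represses translation and promotes decapping of mRNA. Its yeast homolog Dhh1 acts with the decapping enzyme to hold down ATG8 and other autophagy mRNAs in rich medium, and it favours the translation of Atg1 and Atg13 in starved cells.

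The libraries held 16357142 to 21846959 counts. Levels are given in CPM, the counts of a gene scaled to a common library total, with TMM factors (trimmed means that adjust for composition). The mRNA of Ddx6 itself, on which the degron does not act, was not called changed (267 and 249.9 CPM before treatment, 269 and 271 after 3 h, 258 and 247 after 6 h), so the counts do not check the depletion. The ES cell label was checked against 14 pluripotency markers, whose summed CPM was 7042 and 7275 before treatment, 7342 and 7286 after 3 h, and 6569 and 6773 after 6 h. None of the 14 was at 0 in any library. In the comparison of 6 h with 0 h, 4 of the markers rose and 7 fell. Of all genes tested 22.3% were called, and 29.6% of those averaging at least 10 CPM. Log2 fold changes of the 14 ran from -0.42 to 0.17. Esrrb (-0.42), Tfcp2l1 (-0.30) and Sall4 (-0.24), all lower, had the smallest adjusted p. At 3 h, 1 of the 14 was called, higher, and 7 had an unadjusted p under 0.05. Feeder RNA was present throughout. The summed CPM of 28 fibroblast markers was 32533 and 29622 before treatment, 28648 and 28016 after 3 h, and 31830.3 and 28429.6 after 6 h, and all 28 had a negative log2 fold change at 3 h, of which none was called and 23 had an unadjusted p under 0.05. At 6 h against 0 h, 2 rose and 2 fell, and Ccn2 (-0.37) and Col6a2 (0.14) were among those called. Of 12 markers of differentiated lineages, at a summed 72.9 to 84.2 CPM, 9 were tested, and at 6 h Eomes rose (log2 fold change 0.35), Sox1 rose (0.56) and T fell (-0.64). Apart from a fit with the mean of the feeder markers as a covariate, the part of these marker changes in the results below was not tested. In bulk RNA fewer cells of a type cannot be told apart from less RNA per cell.

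A gene was called when the p of edgeR's quasi-likelihood test, adjusted over all genes tested, was under 0.05. At 3 h no autophagy gene was called by edgeR, DESeq2 or limma voom, beside 0.14% of the 15748 genes by edgeR (0.0508% higher and 0.0889% lower). An unadjusted p under 0.05 was found for 3, beside 10.7% of all genes. At 6 h against 0 h, 15 of the 37 genes were called, 5 higher and 10 lower, beside 22.3% of all genes tested (10% higher and 12.3% lower) and 29.6% of the 9449 genes that averaged at least 10 CPM, as 35 of the 37 did. The changes were small. The 10 lower genes fell by 7.93% to 24.4%, and the 5 higher genes rose by 10.3% to 23.2%. The rises were in Ulk2, Pik3r4, Atg2b, Atg4c and Gabarapl1, and the falls in Ulk1, Atg13, Atg14, Atg16l1, Atg4b, Map1lc3b, Gabarapl2, Sqstm1, Tfeb and Lamp1. Over all 37 the median log2 fold change was -0.08 at 6 h, beside 0.00 over all genes tested, and 0.02 at 3 h.

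**Figure D1:**
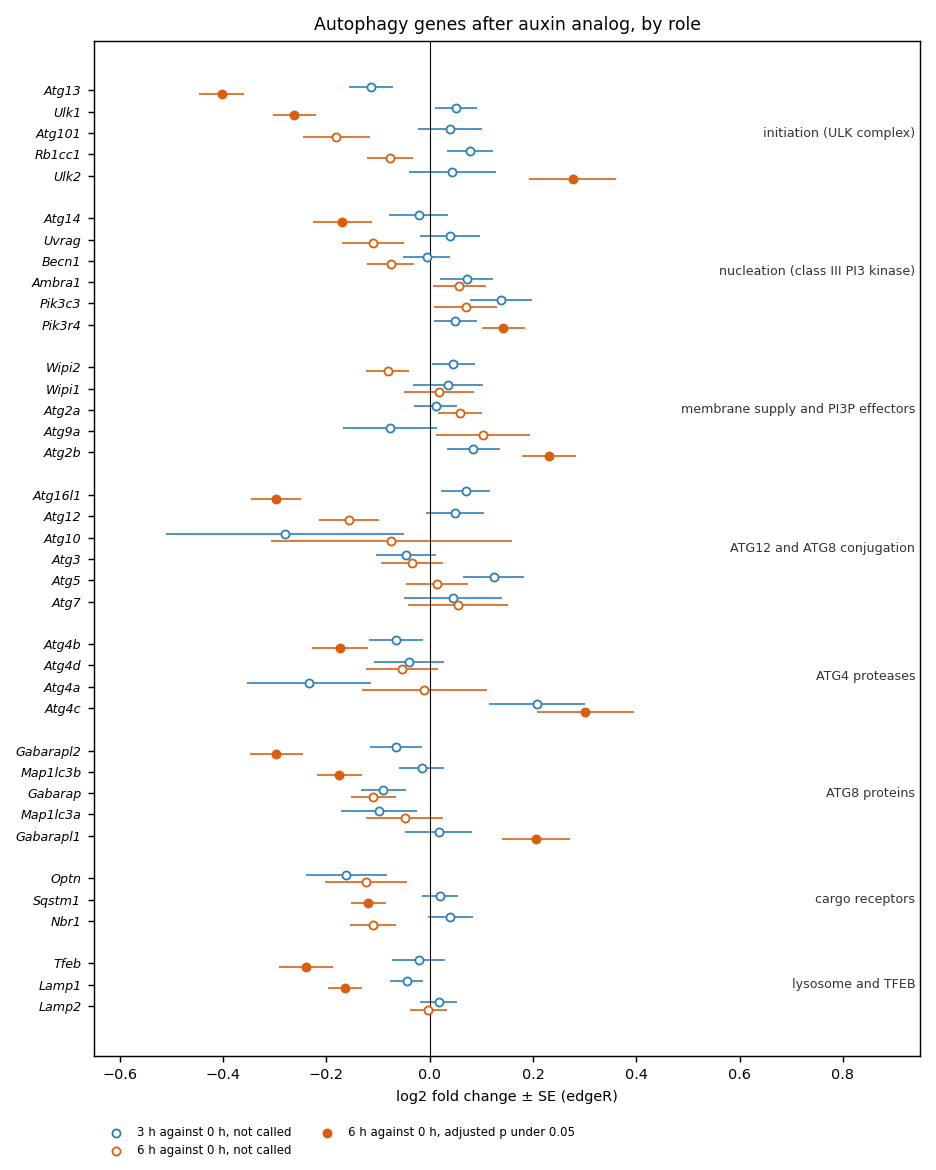
Log2 fold change (x axis) of each of the 37 autophagy genes, grouped by role. The 3 h (blue) and 6 h (orange) points are against the shared 0 h libraries. Lines are ± 1 SE, derived from the F of edgeR's test, and filled points passed an adjusted p under 0.05. No 3 h point is filled, and the 15 filled 6 h points lie between -0.40 and 0.30.

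The split by direction moved with the scaling of the libraries. Over all genes, 1575 were higher and 1940 lower at 6 h with trimmed-mean (TMM) scaling, and 2128 higher and 1457 lower with library sizes alone, an alternative added after the data were seen. The same change left 5 autophagy genes higher and 7 lower, with Atg14, Atg4b and Sqstm1 no longer called, and moved the median of the 37 from -0.08 to -0.04 while that of all genes went from 0.00 to 0.04. The 5 genes Ulk1, Atg13, Atg16l1, Gabarapl2 and Lamp1 were called lower at 6 h in each of the 16 alternative analyses. No called autophagy gene changed direction in any of them, but the 6 h and 0 h libraries of each did not overlap in CPM. Leaving 1 library out could therefore hardly reverse a direction. DESeq2 called 7 of the 15, namely those 5 with Atg2b and Tfeb, and without 0 h replicate 2 edgeR called 8 of the 37 (libraries were left out 1 at a time throughout). With no filter on low counts, 8 of the 37 were called lower and 0 higher, so that none of the 5 rises was called. In DESeq2 Atg2b was the only 1 of the 5 rises called. In 28 of the 37 genes the 6 h libraries did not overlap the 0 h libraries in CPM, beside 59.5% of all genes. An unadjusted p under 0.05 was found for 19, beside 34.6%.

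In the ULK complex, which receives signals from mTORC1 and AMPK and starts autophagy, the 2 kinase paralogs, homologs of yeast Atg1, moved in opposite directions. Positions of this and the following genes are on GRCm38. Ulk1 (ENSMUSG00000029512, chromosome 5, 110784488 to 110810097) measured 300.1 and 319 CPM before treatment, 328 and 313 after 3 h, and 249 and 267 after 6 h. Both 6 h libraries lay below the other 4, and against 0 h the log2 fold change at 6 h, with its SE, was -0.26 ± 0.04 (adjusted p = 0.000262 in edgeR's test). At 3 h it had been 0.05 ± 0.04, with an adjusted p of 0.710. Ulk2 (ENSMUSG00000004798, chromosome 11, 61775649 to 61855073), a kinase with overlapping function, measured 16.9 and 15.1 CPM before treatment, 17.2 and 15.8 after 3 h, and 20.02 and 18.7 after 6 h. Its 6 h libraries were above the other 4, with a log2 fold change of 0.28 ± 0.08 (adjusted p = 0.0265). That call was lost when 0 h replicate 2 (adjusted p = 0.200) or 6 h replicate 1 was left out. Per transcript length, Ulk1 stood at a mean of 143 TPM (counts per transcript length, scaled to a common total) and Ulk2 at 7.57. Their ratio in TPM was 19.6 and 23.2 before treatment, 21.03 and 21.9 after 3 h, and 13.7 and 15.7 after 6 h. Neither 6 h ratio reached the range of the earlier 4 libraries.

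Atg13, the HORMA-domain subunit that links the kinase to its scaffold, had the smallest adjusted p of the 37 at 6 h. Atg13 (ENSMUSG00000027244, chromosome 2, 91674618 to 91710576) measured 97.3 and 103 CPM before treatment, 92.4 and 92.8 after 3 h, and 75.6 and 75.9 after 6 h. The 3 h libraries lay between the 0 h and the 6 h libraries without overlapping either. Its log2 fold change was -0.11 ± 0.04 at 3 h (adjusted p = 0.342, not called, and the smallest of the 37 at that time) and -0.40 ± 0.04 at 6 h (adjusted p = 6.28e-06). Leaving out any library gave -0.44 to -0.36. The scaffold Rb1cc1 (ENSMUSG00000025907, chromosome 1, 6206197 to 6276648), also known as FIP200, measured 74.2 and 73.8 CPM before treatment, 76.5 and 79.8 after 3 h, and 70.4 and 70.05 after 6 h. Atg101 (ENSMUSG00000037204, chromosome 15, 101284272 to 101290945), the partner of ATG13, measured 32.7 and 32.6 CPM before treatment, 32.2 and 34.9 after 3 h, and 29.8 and 27.8 after 6 h. Both had their lowest 2 values at 6 h. They were not called at 6 h against 0 h (log2 fold changes -0.08 and -0.18, adjusted p = 0.241 and 0.0527) but were called against 3 h, at -0.15 ± 0.04 (adjusted p = 0.0204) for Rb1cc1 and -0.22 ± 0.06 (adjusted p = 0.0208) for Atg101. Without 3 h replicate 2 those adjusted p-values were 0.210 and 0.227. Atg101 was also lost without 6 h replicate 2, and Rb1cc1 without any of the 4 libraries of that comparison.

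DDX6 takes part in silencing by microRNAs, and ES cells carry the miR-290 and miR-302 families, whose shared seed pairs with AGCACTT. RefSeq (GRCm38.p6) gives these mature sequences, printed 5′ to 3′ with the seed, bases 2 to 8, in capitals, to show what was searched for.
mmu-miR-294-3p: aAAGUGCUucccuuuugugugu
mmu-miR-302b-3p: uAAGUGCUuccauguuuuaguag
The 7 bases AGCACTT occurred in the longest annotated 3′ UTR of 8 of the 37 autophagy genes (21.6%) and of 17.5% of the 13484 tested coding genes with a 3′ UTR. The 8 were Ulk1, Rb1cc1, Atg9a, Wipi1, Atg7, Atg4b, Atg4d and Lamp2. The matches in the pair called at 6 h, both lower, are shown with the matched bases in capitals, beside that of Lamp2, which was not called.
Ulk1: ttgtaagtcaccggAGCACTTtatgcat
Atg4b: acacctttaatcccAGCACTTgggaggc
Lamp2: gcattgactgctacAGCACTTactaatt
The median log2 fold change at 6 h was -0.03 over the 8 genes with a match and -0.08 over the 29 without one. Over all coding genes it was 0.01 with a match and 0.00 without. A match describes the letters alone.

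Among the 6 genes of the class III PI3 kinase complexes, which make the PI3P that marks the growing membrane, 1 rose and 1 fell at 6 h. Pik3r4 (ENSMUSG00000032571, chromosome 9, 105642978 to 105687657), which encodes the regulatory subunit VPS15, measured 96.1 and 99.9 CPM before treatment, 100.3 and 103 after 3 h, and 107 and 109 after 6 h. Both 6 h libraries were above the other 4 (log2 fold change 0.14 ± 0.04, adjusted p = 0.0208). The call was lost without 0 h replicate 1 (adjusted p = 0.130) or 6 h replicate 2. Atg14 (ENSMUSG00000037526, chromosome 14, 47540893 to 47570649), the subunit that sends the kinase to autophagosome formation sites, measured 63.8 and 71.3 CPM before treatment, 65.3 and 67.8 after 3 h, and 57.7 and 62.4 after 6 h. Its 6 h libraries were below the other 4, but the 0 h libraries lay further from each other than the lower of them lay from the 6 h pair. The log2 fold change was -0.17 ± 0.06 (adjusted p = 0.0436), and this call held in 7 of the 16 alternatives. It was lost without 0 h replicate 2 (-0.08, adjusted p = 0.413), without 6 h replicate 1 and without either 3 h library.

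The other 4 genes of the group were not called in any comparison. Becn1 and Uvrag, the core subunit beclin 1 and a subunit of the endosomal form of the kinase, had log2 fold changes of -0.08 and -0.11 at 6 h. Pik3c3, the catalytic subunit, and Ambra1, a scaffold that ties beclin 1 to ULK1, were at 0.07 and 0.06. The SE of these 4 values was 0.05 to 0.06, and their adjusted p ran from 0.209 to 0.467.

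Of the genes that supply membrane or read PI3P, 1 of 5 rose at 6 h. Atg2b (ENSMUSG00000041341, chromosome 12, 105616136 to 105685211), one of a pair of lipid-transfer proteins that feed the growing membrane, measured 83.9 and 74.96 CPM before treatment, 86.2 and 82.2 after 3 h, and 94.3 and 92.00 after 6 h. The 6 h libraries were above the other 4, while the 0 h pair differed by more than the 3 h or 6 h pair. Its log2 fold change was 0.23 ± 0.05 (adjusted p = 0.00423), and without 0 h replicate 2 it was 0.15 (adjusted p = 0.0714). Its paralog Atg2a was at 0.06 ± 0.04 (adjusted p = 0.351). The difference between the paralogs was not tested. Atg9a, the membrane protein of the seed vesicles, was at 0.10 ± 0.09 and Wipi1, a PI3P-binding protein, at 0.02 ± 0.07 (adjusted p = 0.458 and 0.886). Wipi2 (ENSMUSG00000029578, chromosome 5, 142627698 to 142670588), the PI3P-binding protein that recruits ATG16L1, measured 119 and 116 CPM before treatment, 125 and 118 after 3 h, and 109 and 113 after 6 h. It was lowest in both 6 h libraries, with -0.13 ± 0.04 against 3 h (adjusted p = 0.0403) and -0.08 ± 0.04 against 0 h (adjusted p = 0.186). The call against 3 h was lost when any of the 4 libraries compared was left out, at an adjusted p up to 0.373 (without 3 h replicate 1).

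In the conjugation systems, Atg16l1 fell and the enzymes were not called. Atg16l1 (ENSMUSG00000026289, chromosome 1, 87755870 to 87792428) encodes the subunit that places the ATG12-ATG5 conjugate on the membrane, and it measured 77.3 and 78.5 CPM before treatment, 79.7 and 83.9 after 3 h, and 65.5 and 61.4 after 6 h. Both 6 h libraries were below the other 4, with no sign of a fall at 3 h, where the values lay above the 0 h pair. The log2 fold change was -0.30 ± 0.05 at 6 h against 0 h (adjusted p = 0.000320) and -0.37 ± 0.05 against 3 h (adjusted p = 5.56e-05), the largest fall of the 37 in the latter comparison. Atg12 (ENSMUSG00000032905, chromosome 18, 46730144 to 46741580), the ubiquitin-like protein of the first system, measured 49.4 and 55.3 CPM before treatment, 53.2 and 55.2 after 3 h, and 47.8 and 46.3 after 6 h. It was called lower at 6 h against 3 h (-0.21 ± 0.06, adjusted p = 0.0178) and not against 0 h (-0.16 ± 0.06, adjusted p = 0.0620). Without 3 h replicate 2 the adjusted p against 3 h was 0.150, and the call was also lost without 3 h replicate 1 or 6 h replicate 2.

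Atg5, the acceptor of ATG12, was at 0.01 at 6 h against 0 h. The enzymes Atg7 (E1-like), Atg3 (E2-like, for ATG8) and Atg10 (E2-like, for ATG12) were at 0.05, -0.03 and -0.07, with adjusted p from 0.733 to 0.894 for the 4 genes. Atg10 was the scarcest of the 37, at 1.67 to 2.70 CPM, and its SE of 0.23 was the widest, so a change of the size seen in Atg16l1 was not detectable for it at this depth.

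The ATG4 cysteine proteases trim ATG8 proteins before conjugation and cut them from the membrane. Atg4b (ENSMUSG00000026280, chromosome 1, 93751500 to 93790610) measured 46.1 and 47.7 CPM before treatment, 45.7 and 43.9 after 3 h, and 40.6 and 42.5 after 6 h. Atg4c (ENSMUSG00000028550, chromosome 4, 99193934 to 99259787) measured 12.2 and 14.05 CPM before treatment, 16.04 and 14.4 after 3 h, and 16.6 and 15.8 after 6 h. The 6 h libraries of Atg4b were below the earlier 4. Those of Atg4c were above the 0 h pair, and 3 h replicate 1 lay between them. The log2 fold changes were -0.17 ± 0.05 for Atg4b (adjusted p = 0.0279) and 0.30 ± 0.09 for Atg4c (adjusted p = 0.0287). Atg4c already stood at 0.21 ± 0.09 at 3 h (adjusted p = 0.434, not called) and at 0.09 ± 0.09 between 3 h and 6 h (adjusted p = 0.506). The 6 h call of Atg4b was lost without 0 h replicate 2 or 6 h replicate 1 (adjusted p = 0.186), and that of Atg4c without 0 h replicate 1 (adjusted p = 0.183) or either 6 h library. Atg4a and Atg4d were at -0.01 and -0.05 (adjusted p = 0.964 and 0.636). Counts of Atg4a are uncertain, since a copy of its coding sequence, Atg4a-ps, is 99.4% identical.

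The ATG8 mRNAs, which the yeast homolog of DDX6 holds down in rich medium, did not move as a group: 2 of the 5 fell, 1 rose and 2 were not called at 6 h, and none was called at 3 h. Gabarapl2 (ENSMUSG00000031950, chromosome 8, 111940703 to 111953612) measured 92.1 and 89.9 CPM before treatment, 87.2 and 86.6 after 3 h, and 78.3 and 69.8 after 6 h. The 6 h libraries were the lowest 2, with a log2 fold change of -0.30 ± 0.05 (adjusted p = 0.000511). Map1lc3b (ENSMUSG00000031812, chromosome 8, 121590361 to 121598760), which encodes LC3B, the usual marker of autophagosomes, measured 93.6 and 96.6 CPM before treatment, 94.5 and 93.6 after 3 h, and 82.1 and 86.3 after 6 h. It was also lowest at 6 h (-0.18 ± 0.04, adjusted p = 0.00818), a call lost without 0 h replicate 2 or 6 h replicate 1 (adjusted p = 0.0922).

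Gabarapl1 (ENSMUSG00000030161, chromosome 6, 129533160 to 129542346) moved the other way and measured 32.9 and 29.99 CPM before treatment, 32.5 and 31.1 after 3 h, and 34.9 and 37.6 after 6 h. Its 6 h libraries were above the other 4, with 0.21 ± 0.07 against 0 h (adjusted p = 0.0310) and 0.19 ± 0.06 against 3 h (adjusted p = 0.0474), where it was the only one of the 37 called higher. Without 0 h replicate 2 the first adjusted p was 0.239, without 6 h replicate 2 both calls were lost (adjusted p = 0.282 against 3 h), and the second was lost without either 3 h library. Gabarap (ENSMUSG00000018567, chromosome 11, 69991143 to 69994951) measured 102 and 107 CPM before treatment, 99.3 and 97.2 after 3 h, and 99.3 and 94.7 after 6 h. Map1lc3a (ENSMUSG00000027602, chromosome 2, 155276297 to 155278073), which encodes LC3A, measured 24.4 and 24.6 CPM before treatment, 24.3 and 21.5 after 3 h, and 24.5 and 22.9 after 6 h. Gabarap lay below both 0 h libraries at 3 h and 6 h, and Map1lc3a overlapped between 0 h and 6 h. Neither was called at 6 h (-0.11 ± 0.04, adjusted p = 0.0884, and -0.05 ± 0.07, adjusted p = 0.690).

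Per transcript length, Gabarap was the most abundant of the 5 at 186 TPM on average, ahead of Gabarapl2 at 126, Map1lc3b at 86.9, Map1lc3a at 53.5 and Gabarapl1 at 45.8. The spread over the 6 libraries did not bring Gabarap, Gabarapl2, Map1lc3b and the last pair into each other's range, while Map1lc3a and Gabarapl1 overlapped. The place of Map1lc3b rests on the transcript taken for its length, since it was 43.3 TPM over the union of its annotated exons. Summed over the 5, ATG8 mRNA stood at 523 and 519 TPM before treatment, 501 and 483 after 3 h, and 485 and 477 after 6 h. Gabarapl2 made up 26.7% and 25.7% of that sum before treatment, 25.9% and 26.4% after 3 h, and 24.3% and 22.4% after 6 h. Gabarapl1 made up 8.79% and 7.91%, 8.89% and 8.74%, and 9.95% and 11.1%. Both 6 h shares of Gabarapl2 were below, and both of Gabarapl1 above, the range of the earlier 4 libraries.

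**Figure D2:**
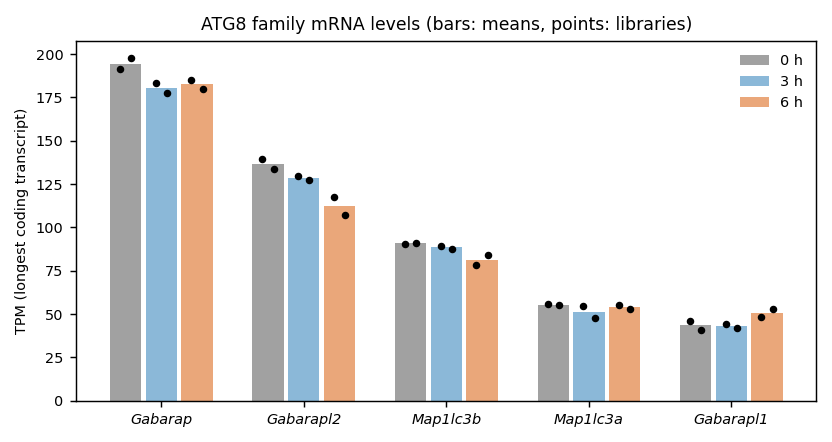
Level of the 5 ATG8 mRNAs in TPM (y axis, from 0) at 0, 3 and 6 h; bars are means of 2 libraries and points the libraries. Gabarapl2 and Map1lc3b are lowest and Gabarapl1 highest at 6 h.

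Cargo receptors bind ubiquitinated cargo and ATG8 proteins together. Sqstm1 (ENSMUSG00000015837, chromosome 11, 50199366 to 50210827), which encodes p62, measured 329 and 328 CPM before treatment, 338 and 328 after 3 h, and 308 and 297 after 6 h. Both 6 h libraries were below the other 4, and its log2 fold change of -0.12 ± 0.03 (adjusted p = 0.0184) was the smallest in size among the called genes. It was lost without 6 h replicate 2 (adjusted p = 0.116) or either 0 h library. Nbr1 (ENSMUSG00000017119, chromosome 11, 101552149 to 101581951) measured 146 and 156 CPM before treatment, 155 and 156 after 3 h, and 135 and 145 after 6 h. It was called lower against 3 h (-0.15 ± 0.04, adjusted p = 0.0223) and not against 0 h (-0.11 ± 0.04, adjusted p = 0.0852). The call against 3 h was lost without either 3 h library or 6 h replicate 1 (adjusted p = 0.218). Optn, which encodes optineurin, a receptor for mitochondria and bacteria, was at -0.16 ± 0.08 at 3 h and -0.12 ± 0.08 at 6 h (adjusted p = 0.476 and 0.297).

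At the lysosomal end, Tfeb and Lamp1 fell at 6 h. TFEB is a transcription factor that switches on lysosomal and autophagy genes when mTORC1 is low. Tfeb (ENSMUSG00000023990, chromosome 17, 47737030 to 47792419) measured 77.8 and 70.2 CPM before treatment, 73.03 and 72.7 after 3 h, and 63.5 and 61.8 after 6 h. Both 6 h libraries were below the other 4 (-0.24 ± 0.05, adjusted p = 0.00291), a call lost without 0 h replicate 1 (-0.16, adjusted p = 0.0608). Lamp1 (ENSMUSG00000031447, chromosome 8, 13159161 to 13175338) encodes an abundant glycoprotein of the lysosomal membrane and measured 586 and 559.6 CPM before treatment, 557 and 554 after 3 h, and 518 and 505 after 6 h. Its 6 h libraries were below the other 4, at -0.16 ± 0.03 (adjusted p = 0.00177), and its 3 h libraries just below the 0 h pair (-0.04 ± 0.03, adjusted p = 0.668). Lamp2, its paralog, had an adjusted p of 0.969 and stayed between 204 and 212 CPM in every library. Lamp1 was the most abundant of the 37 per length, at 616 TPM, and Sqstm1 the second, at 302 TPM.

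TFEB and its relatives bind E-boxes, CACGTG, best in the context GTCACGTG of the CLEAR element, so promoters were searched for both on either strand. CACGTG reads the same on both strands and is part of the longer motif. RefSeq promoters (GRCm38.p6, 250 bases before to 50 after the start) matched 31 of the 37 genes. CACGTG was in 5 of the 31 (16.1%), namely Lamp1, Atg14, Atg3, Atg5 and Atg7, and in 8.09% of 27025 genes with a promoter. GTCACGTG was in 4 (12.9%), all of these except Atg5, and in 2.55% of all genes. The 27025 genes were not limited to those tested here, as the autophagy genes were, so the shares are of unlike sets. The 3 promoters below show Lamp1 and Atg14, which fell at 6 h, and Atg3, which was not called, 5′ to 3′ on the gene's strand, with every match in capitals (8 bases where the longer motif matched).
Lamp1 (chr8:13158911-13159210, plus strand): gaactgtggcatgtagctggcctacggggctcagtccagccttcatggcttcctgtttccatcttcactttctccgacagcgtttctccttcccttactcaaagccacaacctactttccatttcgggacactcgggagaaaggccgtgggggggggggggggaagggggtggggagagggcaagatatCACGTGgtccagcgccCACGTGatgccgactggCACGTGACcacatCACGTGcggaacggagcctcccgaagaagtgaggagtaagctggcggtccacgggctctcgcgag
Atg14 (chr14:47568385-47568684, minus strand): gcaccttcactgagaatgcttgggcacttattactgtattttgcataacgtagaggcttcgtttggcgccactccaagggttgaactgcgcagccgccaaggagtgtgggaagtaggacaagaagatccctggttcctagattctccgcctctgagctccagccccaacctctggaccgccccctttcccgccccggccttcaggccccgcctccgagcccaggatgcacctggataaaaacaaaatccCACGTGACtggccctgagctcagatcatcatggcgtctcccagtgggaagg
Atg3 (chr16:45158579-45158878, plus strand): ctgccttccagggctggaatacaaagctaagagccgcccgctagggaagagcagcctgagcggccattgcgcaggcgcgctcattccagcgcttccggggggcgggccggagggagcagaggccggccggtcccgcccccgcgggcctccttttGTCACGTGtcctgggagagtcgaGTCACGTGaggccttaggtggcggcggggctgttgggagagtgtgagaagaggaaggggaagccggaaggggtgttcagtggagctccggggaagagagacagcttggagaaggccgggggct
Lamp1 held 4 matches to CACGTG, of which 1 was part of the longer motif, and Atg3 held 2 matches to the longer motif. Of the 5 genes with a match, 2 fell at 6 h and 3 were not called (-0.03, 0.01 and 0.05 for Atg3, Atg5 and Atg7). A match in this window is a description and does not show that a factor binds there.

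**Figure D3:**
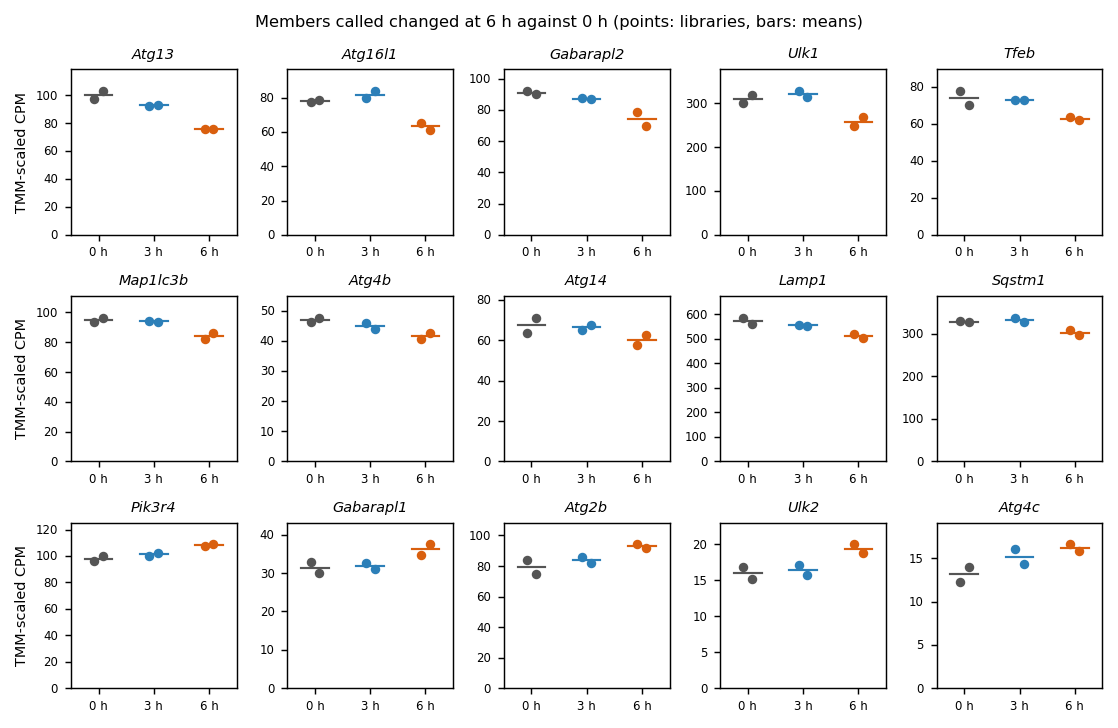
TMM-scaled CPM (y axes, from 0 and different for each gene) of the 15 autophagy genes called at 6 h against 0 h; points are libraries and bars the means of 2. In the 10 genes that fell, both 6 h points lie below both 0 h points, and in the 5 that rose both lie above.

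Against 3 h, 14 autophagy genes were called at 6 h, 1 higher and 13 lower, beside 21.7% of all genes tested (9.89% higher and 11.8% lower). Of the genes averaging at least 10 CPM, 29% were called. An unadjusted p under 0.05 was found for 19 of the 37, beside 34.3% of all genes, and the CPM of 25 did not overlap between 3 h and 6 h, beside 60.8%. Of the 14 called, 9 had also been called against 0 h, with the same 6 h libraries in both comparisons, and Rb1cc1, Atg101, Wipi2, Atg12 and Nbr1 were called against 3 h alone. The median log2 fold change of the 37 was -0.07, beside 0.01 over all genes. Ulk1, Atg13 and Atg16l1 were called lower against 3 h in all 16 alternatives. Gabarapl2 was lost without 6 h replicate 2 (adjusted p = 0.0692), Tfeb without either 3 h library (up to 0.0643), and Sqstm1 without 3 h replicate 1 (0.129) or 6 h replicate 2. Lamp1 was lost without either 3 h library (up to 0.141) or 6 h replicate 2, and Map1lc3b without either 3 h library or 6 h replicate 1 (up to 0.151). Without either 3 h library 5 of the 37 were called, and without 6 h replicate 2 there were 7. With library sizes alone 4 were called higher and 8 lower, beside 2056 higher and 1296 lower over all genes, where TMM scaling gave 1558 and 1856.

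The fold changes at 3 h and 6 h against the shared 0 h libraries stood side by side at 0.05 and -0.26 for Ulk1, 0.07 and -0.30 for Atg16l1, -0.02 and -0.24 for Tfeb, and -0.02 and -0.18 for Map1lc3b. At 3 h the 37 values ran from -0.28 (Atg10) to 0.21 (Atg4c). With the mean of the feeder markers as a covariate, 8 of the 37 were called at 6 h against 3 h and 19 at 6 h against 0 h. Of the 5 genes called against 3 h alone, Atg12 and Nbr1 were then lost against 3 h (adjusted p = 0.171 and 0.539) and called against 0 h (0.0139 and 0.00382). Rb1cc1 and Wipi2 were lost against 3 h (0.0721 and 0.119), and Atg101 was called against both times. DESeq2 called none of these 5 in either comparison, at adjusted p of 0.0816 to 0.1704 against 3 h. Feeder markers were higher at 6 h than at 3 h, with 10 of 28 called, and beyond that covariate their part in these values was not tested.

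In all, 20 of the 37 autophagy genes were called at 6 h against 0 h or 3 h, beside 28.8% of all genes tested, and 17 in neither. That share covers genes of all levels and was not computed for those averaging at least 10 CPM. The 17 were Becn1, Pik3c3, Uvrag, Ambra1, Atg9a, Atg2a, Wipi1, Atg3, Atg5, Atg7, Atg10, Atg4a, Atg4d, Map1lc3a, Gabarap, Optn and Lamp2, which include each E1-like and E2-like enzyme on the list. A missed threshold does not show that a level was the same. The 22 genes not called at 6 h against 0 h had log2 fold changes of -0.18 to 0.10 with SEs of 0.04 to 0.23.

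Further genes of the pathway were read from lists of related genes. Of 19 other core genes, 1 rose and 4 fell at 6 h against 0 h (26.3% called). Over all genes tested 22.3% were called, and 29.6% of those averaging at least 10 CPM. Snx30, a sorting nexin involved in ATG9 traffic, fell by 0.67 on the log2 scale (adjusted p = 1.46e-07), Bcl2l1, a BCL2 relative that binds beclin 1, by 0.40 (7.27e-06), and Wdr45, a PI3P-binding relative of the WIPI proteins, by 0.78 (8.09e-05). The remaining calls, named after their values were seen, were Wdr45b, lower, and Rubcn, an inhibitor of the PI3 kinase, higher (0.30). Among 18 genes for fusion of autophagosomes with lysosomes, 5 fell and 13 were not called (27.8% called, a share between those 2). DESeq2 called 1 of the 18, and edgeR called 2 without 0 h replicate 2 or 6 h replicate 1 and 3 without 6 h replicate 2. Plekhm1, an adaptor between LC3 and the fusion machinery, fell by 0.37 (adjusted p = 1.04e-05), and Vps33a and Vps18, subunits of the tethering complex HOPS, by 0.20 and 0.20. Vps18 was not called without 0 h replicate 2 or 6 h replicate 1, nor Vps33a without 6 h replicate 2. Rab5a and Arl8b, also lower, were named after their values were seen.

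Of 23 tested receptors for selective autophagy, 3 rose and 3 fell (26.1% called). This share too lay between the 22.3% of all genes and the 29.6% of those averaging at least 10 CPM. Tex264, a receptor for the endoplasmic reticulum, was at -0.34, Nufip1 at -0.32 and Tollip at -0.27, and the rises were Calcoco1, Bnip3 and Atl3 (0.23, 0.22 and 0.19), named after their values were seen. Without 6 h replicate 1, or in DESeq2, 1 receptor was called higher, and without 6 h replicate 2 there were 2. V-ATPase subunits, which acidify the lysosome, were called lower in 9 of 16 and not called in 7, beside 12.3% of all genes called lower. In either direction 56.25% of the subunits were called, beside 29.6% of genes averaging at least 10 CPM. The median of the subunits was -0.12, beside 0.00 over all genes. Atp6v1b2, Atp6v0b and Atp6v0c led them at -0.21, -0.25 and -0.26 (adjusted p = 0.000569, 0.00102 and 0.00182). With library sizes alone or with DESeq2, 5 of the 16 were called lower, and without 6 h replicate 2 also 5. Among 41 lysosomal hydrolases and membrane proteins, 11 fell and 4 rose (36.6% called). Beside them, 22.3% of all genes were called, and 29.6% of those averaging at least 10 CPM. Manba (-0.22) and Asah1 (-0.22) were among those with the smallest adjusted p. Those that rose included Idua, Arsa and Lipa, named after their values were seen. DESeq2 called 5 of the 41, all lower. Each of the 4 rises was lost without 0 h replicate 2 or 6 h replicate 1, and 9 of the 41 were called in all without either 0 h library or 6 h replicate 2. With library sizes alone, 6 of the lysosomal genes were higher and 8 lower, 4 receptors were higher and 3 lower, and 2 fusion genes were higher and 4 lower. At 3 h edgeR, DESeq2 and voom called no gene of these lists, and 0 to 8 of each had an unadjusted p under 0.05.

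**Figure D4:**
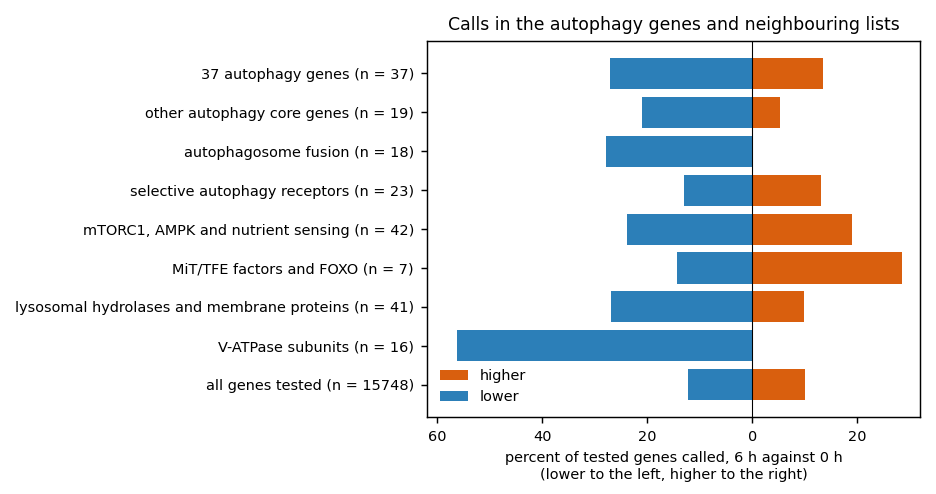
Percent of tested genes called lower (left of 0, blue) and higher (right of 0, orange) at 6 h against 0 h in the 37 autophagy genes, the neighbouring lists and all 15748 genes tested; n is the number tested. With this TMM scaling the V-ATPase and fusion bars have a lower side alone, though with library sizes alone 2 fusion genes were higher, and over all genes 12.3% were lower and 10% higher.

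Genes of mTORC1, AMPK and nutrient sensing, the input to ULK1 and TFEB, were called in 18 of 42, 8 higher and 10 lower. Beside this 42.9%, 22.3% of all genes were called, and 29.6% of those averaging at least 10 CPM. The median of the 42 was -0.05. Without 0 h replicate 2, 4 were higher and 10 lower, and in DESeq2 2 and 8. Flcn and Fnip2 encode folliculin and its partner, which act on the Rag GTPases that bring TFEB and TFE3 to the lysosome for phosphorylation. Fnip2 measured 143 and 139.8 CPM before treatment, 137 and 134 after 3 h, and 83.5 and 85.8 after 6 h. Flcn measured 63.3 and 64.8 CPM before treatment, 65.2 and 65.4 after 3 h, and 44.7 and 41.9 after 6 h. In both, the 6 h libraries lay far below the other 4, which stood close together (log2 fold changes -0.74 ± 0.04 and -0.57 ± 0.05, adjusted p = 3.25e-09 and 7.47e-07). Fnip1, the other partner, and Rragc, a Rag GTPase, were also lower (-0.34 ± 0.05 and -0.31 ± 0.05, adjusted p = 0.000224 and 0.000261); these were named after their values were seen. Ddit4, an inhibitor of mTORC1 also known as REDD1, rose by 0.37 (adjusted p = 0.000120). These 5 genes were called at 6 h in all 16 alternatives. Others of the 18 were too, and of the 8 higher genes Ddit4 alone is named here.

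Among 7 MiT/TFE and FOXO transcription factors, 2 rose and 1 fell. Of all genes tested 22.3% were called, and 29.6% of those averaging at least 10 CPM. Foxo4 and Foxo1 were higher (0.35 ± 0.06 and 0.21 ± 0.06, adjusted p = 0.000233 and 0.0104). Foxo1 was not called without 0 h replicate 2 or 6 h replicate 2, and with library sizes alone the 3 calls among the 7 were all higher. Tfe3, the relative of Tfeb that folliculin keeps out of the nucleus when ES cells leave the naive state, was at -0.13 ± 0.05 (adjusted p = 0.0459), and it was not called when any library was left out. Its fall was smaller in size than that of Tfeb, and the difference between them was not tested.

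**Figure D5:**
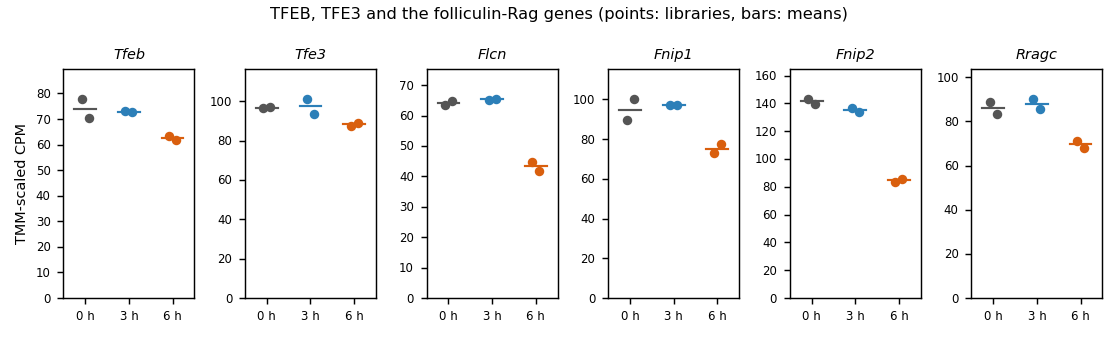
TMM-scaled CPM (y axes, from 0 and different for each gene) of Tfeb, Tfe3 and the folliculin and Rag genes Flcn, Fnip1, Fnip2 and Rragc at 0, 3 and 6 h; points are libraries and bars the means of 2. In all 6 genes both 6 h points lie below the other 4. All 6 shown were genes called lower at 6 h, and Fnip1 and Rragc were picked after their values were seen. The shared direction therefore follows from the choice of genes.

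Features of the longest coding sequence and of the longest 3′ UTR of each gene, which may come from different transcripts, were compared as a description. The median coding length was 3111 bases in the 5 genes that rose (351 to 6225), 1401 in the 10 that fell (351 to 3171) and 1341 in the 22 not called, beside 1416 over 13661 coding genes tested. The GC content of the coding sequence was 42.6% to 52.3% in those that rose and 49.9% to 64.7% in those that fell, and these ranges overlapped. The median 3′ UTR was 1179 bases in those that rose and 1554 in those that fell, with ranges of 372 to 2132 and 605 to 2851. Across the 37 genes, Spearman's rho between the 6 h log2 fold change and third-position GC was -0.23, over genes that share libraries, beside 0.08 over all coding genes. The AU-rich bases TATTTAT were in the 3′ UTR of 30.6% of coding genes and of 13 of the 37 (35.1%), of which 2 rose, 5 fell and 6 were not called.

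Some counts could include reads of other genes, because the strand setting of the counting is not given in the sources used here. Exons of a gene on the other strand covered 43.9% of the exon bases of Becn1, 28.3% of Gabarapl1, 19.3% of Atg4d, 17.6% of Uvrag, 17.3% of Sqstm1, 9.31% of Lamp1 and 5.53% of Atg14, and a gene on the same strand covered 31.8% of Atg9a. Gabarapl2 has 6 processed pseudogenes of at least 90% identity, which held 4.20% of the counts of gene and copies together. For Atg4a that share was 14.0%, from 112 counts of Atg4a-ps and 26 of Syt6, another coding gene that matched over 508 bases.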

How the data were processed

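RNA was sequenced from 6 libraries of D6AdP mouse ES cells, 2 for each of 0, 3 and 6 h, with stranded polyA selection and single-end reads, per the labels' protocols. The values analysed are raw counts per Ensembl gene as deposited by the authors. Per the submitters' processing notes, the tools were featureCounts 2.0.3, HISAT2 2.2.1 and fastp 0.22.0, with GRCm38/mm10 as the genome. Which annotation release was counted, whether strand was used and how multi-mapped reads were counted is not given in the sources used here. Of 55487 IDs, 260 had no GENCODE M21 symbol and held 0.00294% of counts. Libraries held 16357142 to 21846959 counts, so that 3 counts, the least that would be told from 0, were worth 0.137 to 0.183 CPM, for counting error only.

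Counts were fitted in R 4.3.3 with edgeR 4.0.16 (filterByExpr with a minimum count of 10, TMM factors, glmQLFit with legacy=FALSE and glmQLFTest, two-sided), with 3 group means over all 6 libraries, 3 residual and 13.7 prior degrees of freedom. The filter kept 15748 genes and 99.9% of counts. P-values were adjusted by Benjamini and Hochberg over all of them in each of 3 comparisons, which share libraries, and a gene was called at an adjusted p under 0.05. Each SE is the size of the log2 fold change divided by the square root of the test's F, since the test returns no SE. Levels are TMM-scaled CPM. TPM used the longest complete coding transcript of GENCODE M21. Copies were sought with BLAST 2.17.0, at 90% identity or more over at least 200.0 bases. Promoters and microRNAs came from RefSeq tables of GRCm38.p6. The scripts ran under Python 3.11.15 and were tested on simulated data. Replicates had a Pearson correlation of log2 CPM of 0.996 to 0.997, and none differed by less than sampling noise.

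The 37 genes and the other lists were chosen with earlier results of these data known, so no p was adjusted over a list and no list was tested as a set. Values in each library are given for genes called in any comparison, the 5 ATG8 genes, Ulk1, Atg13, Sqstm1 and Tfeb. From each other list, up to 3 called genes with the smallest adjusted p are named. Some genes that this rule would name are not reported here. The 16 alternatives comprised 8 planned settings (other size factors, other filters, DESeq2 1.42.0, limma 3.58.1 voom, the replicate number as a block, the mean of the feeder markers as a covariate, the compared libraries alone), each library left out in turn, and library sizes without scaling factors and edgeR's legacy fit, both chosen after seeing the data. Counts over the other lists were recomputed under the same settings after the data were seen.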

Additional observations from a re-analysis of the deposited data

How the results depend on the processing

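The 5 autophagy genes named as called in every alternative are the ones whose call at 6 h against 0 h did not turn on a setting. Counts of calls did change. With no filter on low counts 0 genes were called at 3 h, 2029 at 6 h against 0 h and 1725 at 6 h against 3 h. Of these, 8 and 7 were autophagy genes, and the 8 were all lower. DESeq2 called 12, 1701 and 1449 genes, with 7 autophagy genes in each 6 h comparison. With feeder markers (their mean) as a covariate, 41 genes were called at 3 h and 2160 at 6 h against 3 h, 8 of them autophagy genes, and the autophagy median at 3 h was 0.036 on the log2 scale. Fitting only the 4 libraries compared gave 74 genes at 3 h. Library sizes without scaling factors put the autophagy median at -0.0404 at 6 h against 0 h and at -0.0329 against 3 h. The causes were not tested.

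Leaving out each library in turn gave 4 to 249 genes called at 3 h, the latter without 0 h replicate 2, 2488 to 3092 at 6 h against 0 h and 1514 to 3706 at 6 h against 3 h. The autophagy genes called were 8 to 14 at 6 h against 0 h and 5 to 17 at 6 h against 3 h. Their median ran from 0.0014 to 0.023 at 3 h, from -0.081 to -0.051 at 6 h against 0 h and from -0.078 to -0.016 at 6 h against 3 h. Where a library was left out, the lone library of its time was assumed to vary like the others.

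Libraries share replicate numbers across times. Deviations of same-numbered libraries from their group means had r = 0.037, 0.040 and -0.021 across 15748 genes, which gave no sign of pairing. Noise in genes with low counts could hide one, so these values do not exclude pairing. With the replicate number as a block, 242 genes were called at 3 h, beside 22 without it. At 6 h the block gave 4227 genes against 0 h and 4186 against 3 h, beside 3515 and 3414 without it. The autophagy genes called with the block numbered 0, 18 and 17. With 2 libraries a time, the SE of an autophagy gene was 0.033 to 0.241 on the log2 scale over the 3 comparisons. A call needed a change several times its SE. At 6 h against 0 h, Sqstm1 was called at -0.119 with an SE of 0.034. Atg101 was not called at -0.181 with an SE of 0.064.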
